A study of Arabidopsis thaliana with 8 samples.

Results

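The 200 brightest nuclear or unannotated probe sets in 24 h imbibed Arabidopsis thaliana seeds are described here. They were chosen by mean deposited intensity over all 8 arrays from 22746 probe sets. A probe set is a group of short array probes that report 1 transcript or a few similar ones. Before ranking, 150 probe sets from a block of consecutive probe-set numbers were left out, and so were 22 others annotated to plastid or mitochondrial genes, of which 7 would have stood among the 200. The remaining 22574 were ranked. The levels of the members are therefore a description, with no test, while the mean over all arrays did not use the differences between groups.

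Imbibition lasted 24 h at either 22 °C or 4 °C, for seeds of the wild type Col-0 and of a 35S-GSH1 line in the same background, and each of the 4 groups held 2 arrays. GSH1 encodes the first enzyme of glutathione synthesis, and in the line it is overexpressed from the viral 35S promoter, which drives strong expression in most plant tissues. The labels say that the 4 °C seeds were imbibed with vernalization and the 22 °C seeds without it. No label says whether the line is 1 transformant or whether replicates came from separate seed lots, so the p-values rest on a spread between replicates that may be technical only. No probe set used here was paired with GSH1 in the annotation, so the overexpression itself was not checked. An unpaired probe set may report GSH1, and this was not checked either.

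A dry seed keeps messenger RNA made while it matured on the mother plant. These stored messages encode storage proteins, the oleosins that coat oil bodies, and late embryogenesis abundant (LEA) proteins, which protect cells in the dry state. During imbibition some stored messages are translated or degraded, while new transcription begins and the machinery for reserve breakdown is built. In whole seeds, fewer cells of a type and less RNA per cell cannot be told apart.

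Mean intensities of the 200 ran from 12074 down to 1922, with a median of 3551, against a median of 13.8 over all probe sets. Probes differ in binding strength, so the order of 2 probe sets is not an order of transcript copies. Within a member the arrays lay close together. The highest array over the lowest had a median of 1.57, and 171 of the 200 differed by less than 2-fold. The defensin-like gene LCR67 had the smallest such ratio, 1.20. STZ, which encodes a zinc finger transcription factor, was the only member above 4-fold, with a ratio of 5.93.

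Of the 200, 91 were paired with 1 gene each, 4 with several genes and 105 with none. Unpaired probe sets made up 52.5% of the members and 38.4% of the whole table. What most members encode is therefore not analysed here, and an unpaired probe set could not be checked for an organelle origin. All 91 genes were distinct and matched the RefSeq gene table, 23 with a symbol and 68 with a locus tag only. Of the 10 brightest members 5 had no paired gene, namely 247095_at, 263385_at, 248125_at, 249082_at and 250351_at at ranks 1, 2, 3, 5 and 8. 247095_at had deposited intensities of 12447, 11607, 13424 and 11470 at 22 °C and 14130, 8714, 14562 and 10240 at 4 °C, so its 4 °C arrays spanned those at 22 °C. The descriptions below cover 27 genes on function lists, while 64 were on no list. The suffix _s_at, which marks probes shared by several transcripts, was carried by 8 of the 200 and by 4.00% of all ranked probe sets.

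**Figure D1:**
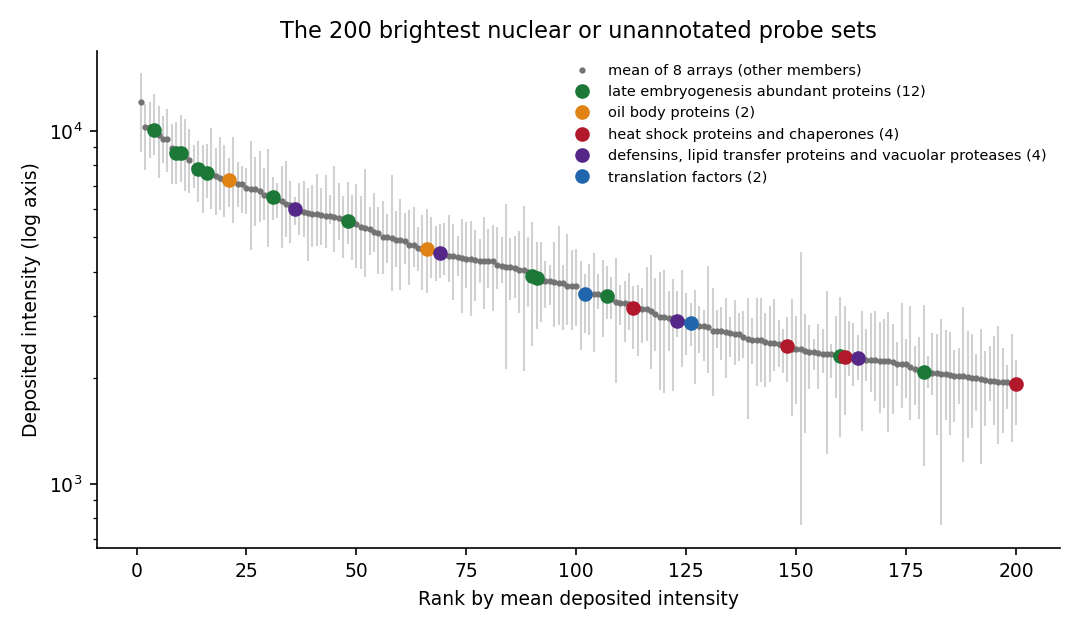
Deposited intensity (log axis) of the 200 probe sets against their rank, with the mean of 8 arrays as points coloured by function list and the lowest to highest array as lines. LEA genes stand among the first ranks, and STZ at rank 151 has the longest line.

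LEA genes were the most frequent named group at the top. Of 18 probe sets paired with genes on the LEA list used here, 12 were members. These took 2.28% to 2.79% of the summed intensity per array. The list held 31 genes and left out some LEA-type genes, such as AT1G72100. The brightest named member was the LEA gene AT3G15670 at rank 4. Its deposited intensities were 8550 and 8704 in Col-0 at 22 °C, 10116 and 9796 in 35S-GSH1 at 22 °C, 12445 and 8600 in Col-0 at 4 °C, and 12698 and 9552 in 35S-GSH1 at 4 °C. Its 4 °C arrays overlapped its 22 °C arrays, while both Col-0 values at 22 °C lay below both 35S-GSH1 values at either temperature. The 2 highest values were the first replicates at 4 °C, which also had the highest summed intensity of the 8 arrays. The dehydrin gene LEA (locus AT2G21490), AtLEA4-1, LEA18 and LEA4-5 followed at ranks 9, 10, 14 and 16, with mean intensities of 8665, 8663, 7825 and 7594. M10, AT3G17520, AT3G53040, AT3G22490, AT4G21020, AT4G36600 and AT5G44310 completed the 12 at ranks 31 to 179. M10 and M17, which encodes another small protein of late embryogenesis, stood at ranks 31 and 35. They are neighbours in the genome with no protein-coding gene between them.

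Storage and oil body messages were also present. PAP85, a vicilin-like storage protein gene, stood at rank 6 and had deposited intensities of 9788, 8820, 9654 and 8102 at 22 °C and 11030, 8361, 10948 and 9292 at 4 °C. Here and below, where 4 values stand for a temperature, both Col-0 arrays precede both 35S-GSH1 arrays. The temperatures overlapped for PAP85. The oleosin genes AT3G01570 and AT2G25890 stood at ranks 21 and 66, with mean intensities of 7254 and 4623, and were 2 of 4 oil body probe sets. On the list of seed storage proteins 1 of 9 genes had a probe set of its own, the cupin gene AT1G03890, and it lay at rank 809.

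Reserve mobilization was represented by ICL, the isocitrate lyase of the glyoxylate cycle, through which seedlings turn oil into sugar. ICL stood at rank 15 with deposited intensities of 7878 and 7457 in Col-0 and 8694 and 6904 in 35S-GSH1 at 22 °C, and 9151 and 5864 in Col-0 and 8491 and 6714 in 35S-GSH1 at 4 °C. These ranges overlapped in all groups. AT3G54940, a papain-type protease gene, stood at rank 24 with a mean of 7075. BETA-VPE, a vacuolar processing enzyme that cleaves storage proteins, and APA1, an aspartic protease, were members at ranks 123 and 164.

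The 20 brightest members with 1 gene also included AT1G04560 at rank 7, AT2G21820 at rank 18, AT1G54870 at rank 22, AT5G45690 at rank 23, AT3G56350 at rank 25, AT1G14950 at rank 27, AT3G05260 at rank 28, AT5G07330 at rank 30 and AT5G66780 at rank 34. AT3G56350 encodes a protein of the iron and manganese superoxide dismutase family, which removes superoxide. AT1G14950 encodes a protein of the major latex protein family, and its neighbour AT1G14940 was a member at rank 124. The pairs AT1G54860 and AT1G54870, and AT1G19530 and AT1G19540, were likewise adjacent protein-coding genes that were both members. LCR67 and PDF2.1, plant defensin genes, stood at ranks 36 and 69.

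Messages of the translation machinery were less bright per probe set. None of 132 probe sets for cytosolic ribosomal proteins with 1 gene was a member, and the brightest, AT1G01100, lay at rank 247 with a median rank of 1777 for the list. One shared member, 263821_s_at at rank 149, was paired with 2 genes that are both on that list. The translation initiation factor genes AT5G54940 and AT4G27130, of the eIF1 (SUI1) family that helps find the start codon, were members at ranks 102 and 126. 247644_s_at, paired with 4 genes of the elongation factor that brings aminoacyl-tRNA to the ribosome, stood at rank 76. UBC28, a ubiquitin-conjugating enzyme gene, stood at rank 155 and the histone gene AT1G08170 at rank 172. 252849_at and 250397_at, each paired with the same 3 histone genes, were at ranks 156 and 186.

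Small heat shock proteins, which hold unfolding proteins in solution, gave 4 members of 11 probe sets on the chaperone list. These were AT1G52560, AT1G54050, AT2G29500 and AT1G53540 at ranks 113, 148, 161 and 200. No member came from the lists of glycolysis and fermentation (7 probe sets) or nuclear photosynthesis genes (3). Levels of different probe sets cannot be ranked as copies, so the markers of the labelled tissue are given as values only. Of 23 photosynthesis genes 3 had a probe set, the brightest being LHCB4.1 at rank 1771 with a mean of 314. BAN, the only seed coat marker with a probe set, had a mean of 1.58 at rank 20703.

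The last members and the first probe sets outside differed little. 265211_at, AT5G43770, AT2G23090, the plantacyanin gene ARPN and AT1G53540 held the last 5 ranks with means of 1953 to 1922. AT3G02480, 266097_at, 262119_s_at, AT2G38905 and AT5G63190 held the next 5 ranks with means of 1909 to 1881. When groups were ranked separately, 156 members were among the first 200 in all 4 groups, 17 in 3 and 27 in 2. Of those 27, 13 were there in both 4 °C groups and 12 in both 22 °C groups. All 8 arrays taken alone kept 147 members.

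The 200 took 27.8% to 31.3% of the summed deposited intensity of an array, with a mean of 29.4%. The first 10 took 2.94% to 3.76%, the first 50 took 11.5% to 13.8% and the first 100 took 18.8% to 22.0%. At 4 °C the share of the 200 was 31.2% and 27.8% in Col-0 and 31.3% and 28.8% in 35S-GSH1. At 22 °C it was 29.1% and 28.6% in Col-0 and 30.1% and 28.3% in 35S-GSH1. The temperatures overlapped. The share was 29.7% ± 1.76 (SD, n = 4) at 4 °C and 29.0% ± 0.814 (SD, n = 4) at 22 °C, a difference of 0.697 percentage points with p = 0.486 in a two-sided exact permutation test. The 70 splits of the arrays allow no p below 0.0286. Between genotypes the difference was 0.448 percentage points (exact permutation p = 0.686). In every group the first replicate had the higher share, and at 4 °C the gap between replicates was larger than the difference between temperatures.

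**Figure D2:**
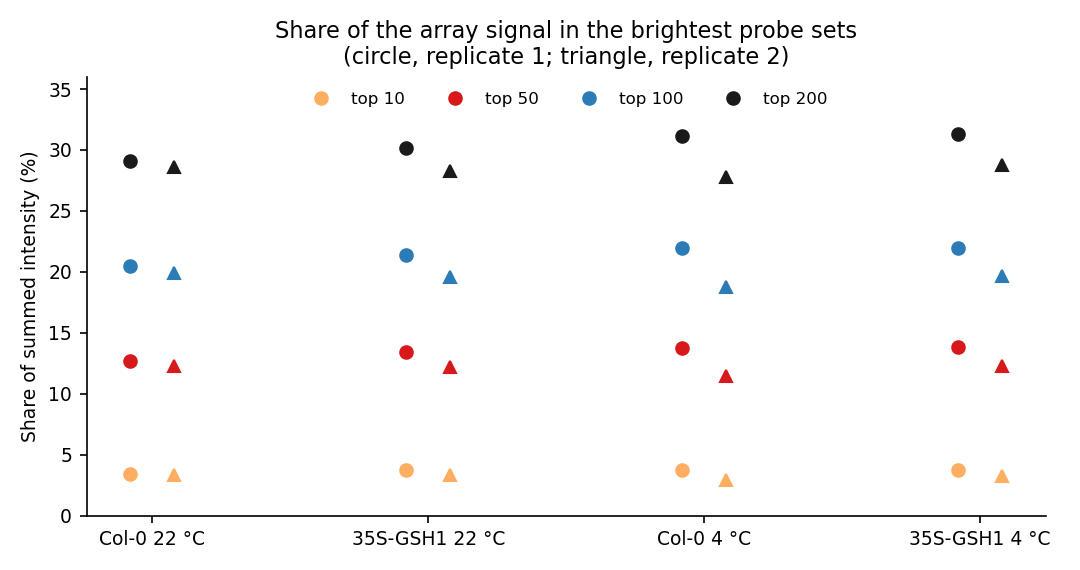
Share of summed deposited intensity (%) taken by the brightest probe sets, by group, with 1 point per array. The 200 members lie between 27.8% and 31.3% on all 8 arrays, and circles (replicate 1) lie above triangles (replicate 2) in each group.

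The temperature comparison asked which of these messages differed in level after 24 h at 4 °C against 22 °C. Averaged over both genotypes, 23 of the 200 members were higher at 4 °C and 20 lower, with limma's adjusted p below 0.05 on quantile normalized log2 intensities. That is 21.5% of the members, against 16.4% of the 13648 probe sets tested, 8.65% higher and 7.74% lower. All 200 passed the filter on dim probe sets. The median log2 difference was 0.02 over the members and 0.01 over all tested. Quantile normalization holds both medians nearly fixed across arrays, so they do not measure a joint shift. Among ranks 201 to 400, 71 of 200 (35.5%) passed, a higher share than among the 200.

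Calls were few among the brightest messages. Of ranks 1 to 50, 0 passed in limma, with 3 at an unadjusted p under 0.05 and a smallest adjusted p of 0.0798. Of ranks 51 to 100, 13 (26%) passed, of ranks 101 to 150, 9 (18%), and of ranks 151 to 200, 21 (42%). Of all probe sets tested 16.4% passed. The log2 differences of the first 50 lay between -0.26 and 0.27. Quantile normalization holds the very brightest probe sets near the same value, and 247095_at, first on every array, has a difference of 0 by construction. On the deposited scale the first 50 also gave 0 calls, with log2 differences between -0.16 and 0.35.

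How far a member's rank depended on temperature touches these counts. Of the 156 members that were among the first 200 in all groups, 19 (12.2%) passed. Of the other 44, 24 (54.5%) passed. A probe set near the last ranks that entered through 1 temperature had to differ between them, so the second share is given as a description. On the deposited scale 31 members passed, 23 higher and 8 lower, and the median of all probe sets tested was shifted by 0.11 log2 towards 4 °C there.

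**Figure D3:**
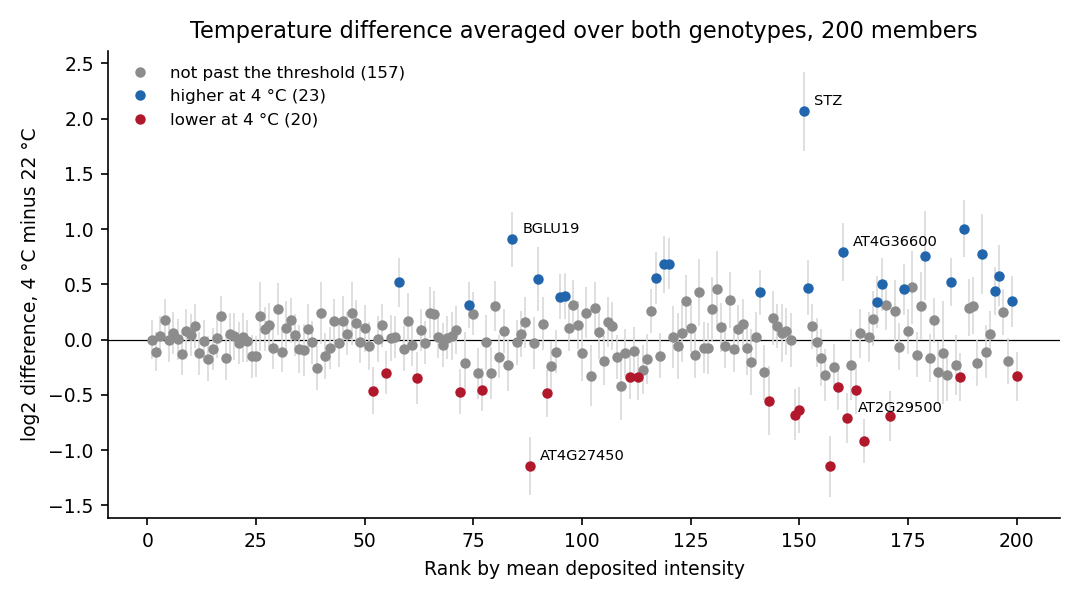
log2 difference between 4 °C and 22 °C, averaged over both genotypes, for each of the 200 members against rank, with limma 95% intervals as lines and those past the threshold of 0.05 coloured. The first 50 ranks lie between -0.26 and 0.27 with none past the threshold, and STZ at rank 151 is the highest point.

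STZ had the largest difference of the 200. This gene encodes a transcriptional repressor known from cold, salt and drought responses. Its normalized intensities were 796 and 1253 in Col-0 and 776 and 900 in 35S-GSH1 at 22 °C, and 3556 and 5304 in Col-0 and 2851 and 4000 in 35S-GSH1 at 4 °C. All 4 °C arrays lay above all 22 °C arrays. The averaged log2 difference was 2.07 (95% interval 1.71 to 2.42, limma adjusted p = 2.82e-06). STZ was in the first 200 in both 4 °C groups only, so its membership rested on the cold arrays.

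Among listed LEA genes 3 of the 12 members rose at 4 °C and 0 fell, with a median log2 difference of 0.13. Over all 16 listed LEA probe sets tested, 5 rose, while 8.65% of all probe sets tested rose. The median of the 16 was 0.13, against 0.01 for all probe sets. AT4G36600 had normalized intensities of 1313, 1606, 1667 and 2270 at 22 °C and 2440, 2821, 3003 and 3449 at 4 °C. The temperatures did not overlap, and the log2 difference was 0.79 (interval 0.53 to 1.05, limma adjusted p = 0.00063). AT5G44310 had 1071, 1766, 1153 and 2216 at 22 °C and 2276, 2529, 2821 and 2452 at 4 °C. It rose by 0.76 (adjusted p = 0.0129), also without overlap, though its lowest 4 °C array was close to its highest 22 °C array. Membership of AT4G36600 and AT5G44310 may rest on their brighter 4 °C arrays. The count among members and the separation of these genes are therefore given as a description. AT3G53040 rose by 0.55 (adjusted p = 0.0124), from 2440 to 3920 at 22 °C to 4303 to 4770 at 4 °C. The call of AT3G53040 was lost without the first 35S-GSH1 array at 22 °C (adjusted p = 0.0575), and that of AT5G44310 without either first replicate at 22 °C (adjusted p up to 0.0674). Over the list, 3 of 16 passed without the first 35S-GSH1 array at 22 °C, and 2 without both first replicates at 4 °C or without the intensity trend.

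The brightest LEA genes did not pass. AT3G15670 had a log2 difference of 0.18 (interval -0.01 to 0.37, limma adjusted p = 0.184). LEA had 0.08, AtLEA4-1 0.04, LEA4-5 0.02 and LEA18 -0.17. AT1G72100, whose product carries an LEA-type domain but which was not on the list, rose by 0.50 (limma adjusted p = 0.00796).

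Other named members also rose. AT2G28490, a vicilin-like cupin gene, had normalized intensities of 1810, 2365, 2440 and 2627 at 22 °C and 3251, 4275, 3430 and 3801 at 4 °C. The temperatures were apart, with a log2 difference of 0.68 (limma adjusted p = 0.00151). PAP85, of the same protein family and far brighter, had a difference of 0.06 (interval -0.13 to 0.25) and did not pass. BGLU19, of the beta-glucosidase family that releases sugars from conjugates, had 2516, 2243, 4000 and 2757 at 22 °C and 5304, 5171, 5095 and 5514 at 4 °C. It rose by 0.91 (adjusted p = 0.000154), and the first 35S-GSH1 array at 22 °C was nearest to the cold arrays. AT4G27530, AT1G15330 and AT1G02700 rose by 0.56, 0.43 and 0.39, and AT1G15330 encodes a protein with CBS domains. AT1G02700 lost its call without the second 35S-GSH1 array at 4 °C (adjusted p = 0.0644).

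The oleosin members, ICL and the members from the list of defensins and vacuolar proteases did not pass in the averaged comparison. AT3G01570 had a log2 difference of -0.03 and AT2G25890 of 0.23 (limma adjusted p = 0.12), and 1 of the 4 oil body probe sets, which is no member, rose. ICL had -0.09 (interval -0.28 to 0.10). LCR67, PDF2.1, BETA-VPE and APA1 lay between -0.09 and 0.06, and 0 of 10 tested probe sets of their list passed. UBC28 had -0.16 and the histone gene AT1G08170 0.26, without passing.

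Of the 4 small heat shock protein members 3 fell at 4 °C. On the chaperone list 5 of 10 tested probe sets fell, against 7.74% of all tested, with a list median of -0.34. AT2G29500 had normalized intensities of 2605, 2516, 2945 and 3623 at 22 °C and 1426, 1719, 2006 and 1990 at 4 °C. It fell by 0.71 on the log2 scale (interval -0.94 to -0.48, limma adjusted p = 0.000515), with all 4 °C arrays below all 22 °C arrays. AT1G52560, from 3347 to 3756 at 22 °C and 2643 to 2918 at 4 °C, fell by 0.34 (adjusted p = 0.0244). AT1G53540, the last member, fell by 0.33 (adjusted p = 0.0432). Membership of AT2G29500 and AT1G53540 may rest on their brighter 22 °C arrays. The count among members and the separation of AT2G29500 are therefore given as a description. The call of AT1G52560 was lost without any 1 of 5 arrays (adjusted p up to 0.0912) and that of AT1G53540 without any 1 of 7 (up to 0.154), and neither passed on the deposited scale. AT1G54050 had a log2 difference of -0.01 (interval -0.25 to 0.24). The list count was 3 on the deposited scale and without the intensity trend. It was also 3 without the first Col-0 or second 35S-GSH1 array at 22 °C, the second Col-0 array at 4 °C, or either 35S-GSH1 array at 4 °C.

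AT4G27450, a gene of the aluminium-induced protein family, fell most among named members. Its normalized intensities were 4570, 6667, 6153 and 5171 at 22 °C and 2860, 3098, 2022 and 2261 at 4 °C. The temperatures were apart and the log2 difference was -1.14 (interval -1.41 to -0.88, limma adjusted p = 3.31e-05). TIL, the temperature-induced lipocalin, which protects membranes from oxidation, fell by 0.47 (adjusted p = 0.00406), from 4740 to 5807 at 22 °C to 3545 to 3920 at 4 °C. DI19, a zinc-binding protein gene named for drought induction, fell by 0.33, and AT4G36010, of the thaumatin family, by 0.55. TIL and DI19 did not pass on the deposited scale, and DI19 and AT4G36010 were each lost without any 1 of 5 arrays (adjusted p up to 0.131 and 0.0863).

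**Figure D4:**
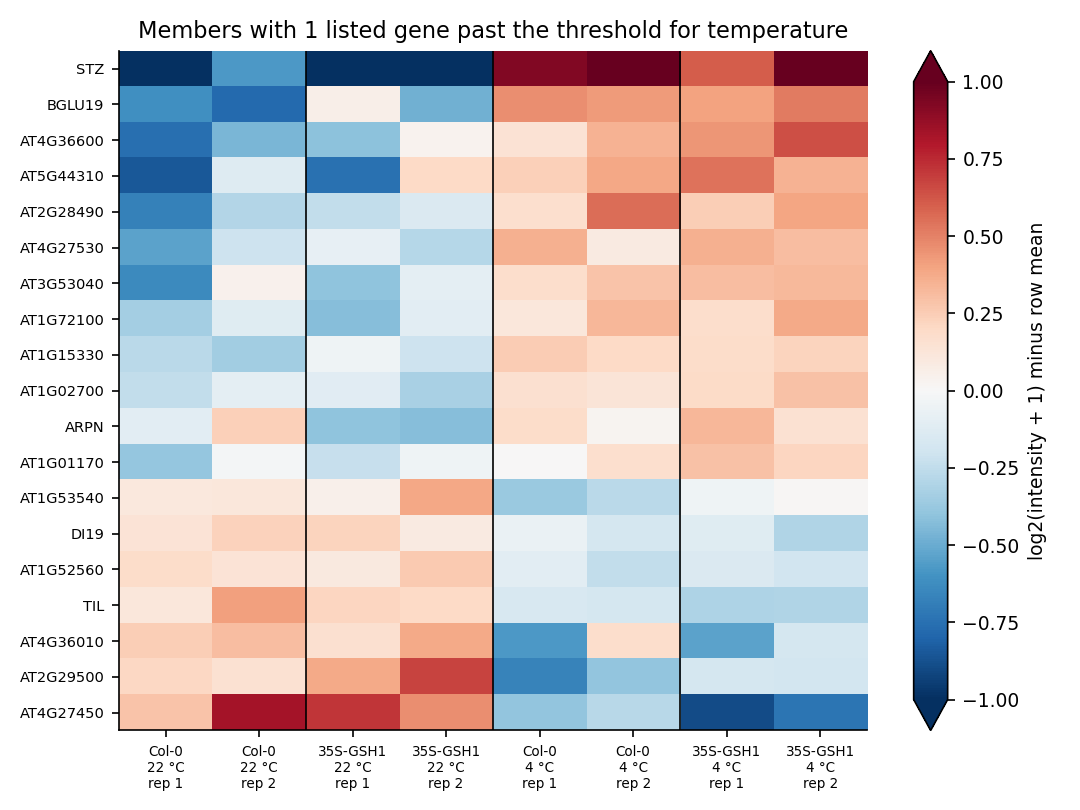
Heat map of log2(normalized intensity + 1) minus the row mean for the 19 members with 1 gene that passed for temperature, with 1 column per array and colours limited at 1 on either side. The 12 upper genes are higher in most 4 °C columns and the 7 lower genes in most 22 °C columns, with ARPN and AT4G36010 the least even.

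Of the translation genes among the members, the eIF1 and elongation factor probe sets did not pass and the shared ribosomal protein probe set fell. AT5G54940 had a log2 difference of -0.33 (limma adjusted p = 0.103), AT4G27130 of -0.14 and 247644_s_at of -0.31 (adjusted p = 0.0673). 263821_s_at, singled out after its values were seen because both its genes encode ribosomal proteins, had 3214, 2918, 2713 and 3051 at 22 °C and 2063, 1797, 1970 and 1606 at 4 °C. It fell by 0.68 (adjusted p = 0.000697), and the temperatures were apart, though its membership may rest on the 22 °C arrays. Among ribosomal protein probe sets with 1 gene, none of them a member, 83 of 119 tested fell and 1 rose. Of all probe sets tested 7.74% fell and 8.65% rose. The ribosomal median was -0.58, and 73 to 86 ribosomal probe sets fell under the 4 other scalings and 46 without the intensity trend.

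Of the 105 members with no paired gene 11 rose and 12 fell (21.9%), against 12 and 7 of the 91 with 1 gene (20.9%). Of all probe sets tested 16.4% passed, 8.65% higher and 7.74% lower. The largest rise was at 245711_at, with 1278, 1452, 1360 and 1213 at 22 °C and 2487, 3507, 2413 and 2365 at 4 °C. It rose by 1.01 (limma adjusted p = 8.11e-05). The largest fall was at 247655_at, from 2900, 3651, 3111 and 3507 to 1336, 1941, 1426 and 1303. It fell by 1.15 (adjusted p = 5.16e-05). In both, all arrays of one temperature lay beyond those of the other. Membership of both may rest on the brighter temperature, so this separation is given as a description.

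Within each genotype fewer members passed. In Col-0 alone 11 rose and 9 fell at 4 °C, 10% of the members against 6.98% of all tested, of which 3.68% rose and 3.3% fell. In 35S-GSH1 alone 7 rose and 10 fell, 8.5% against 5.58% of all tested, of which 2.8% rose and 2.78% fell. The members called in both were 11, with the same direction in each, which is 55% of the Col-0 calls and 64.7% of the 35S-GSH1 calls. Over all probe sets tested 469 were called in both, all with the same direction, or 49.2% and 61.5%. STZ differed by 2.12 in Col-0 and 2.01 in 35S-GSH1, BGLU19 by 1.14 and 0.67, AT4G36600 by 0.85 and 0.73, AT2G29500 by -0.71 in each, and AT4G27450 by -0.89 and -1.40. AT2G28490, AT4G27530 and AT1G15330 passed in Col-0, where they rose by 0.85, 0.60 and 0.54. TIL and ARPN passed in 35S-GSH1, with differences of -0.51 and 0.65. Passing in a single genotype does not show a difference between genotypes. The 35S-GSH1 difference minus the Col-0 difference was -0.34 for AT2G28490, -0.08 for AT4G27530, -0.21 for AT1G15330 and -0.08 for TIL, and none passed.

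These counts rested on few arrays. The Col-0 count of 20 was 10 without the first Col-0 array at either temperature and 13 without the second at 4 °C. The 35S-GSH1 count of 17 was 9 without its first array at either temperature, 8 without its second at 22 °C and 5 without its second at 4 °C. AT2G20560, a gene of the DNAJ co-chaperone family, fell by 0.71 in Col-0 (limma adjusted p = 0.0125) and differed by 0.07 in 35S-GSH1. The difference between those 2 values, 0.78, had an unadjusted limma p of 0.0028 and did not pass after adjustment. No member passed for this interaction (0 of 200 in limma, 9 at an unadjusted p under 0.05, background 0%).

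**Figure D5:**
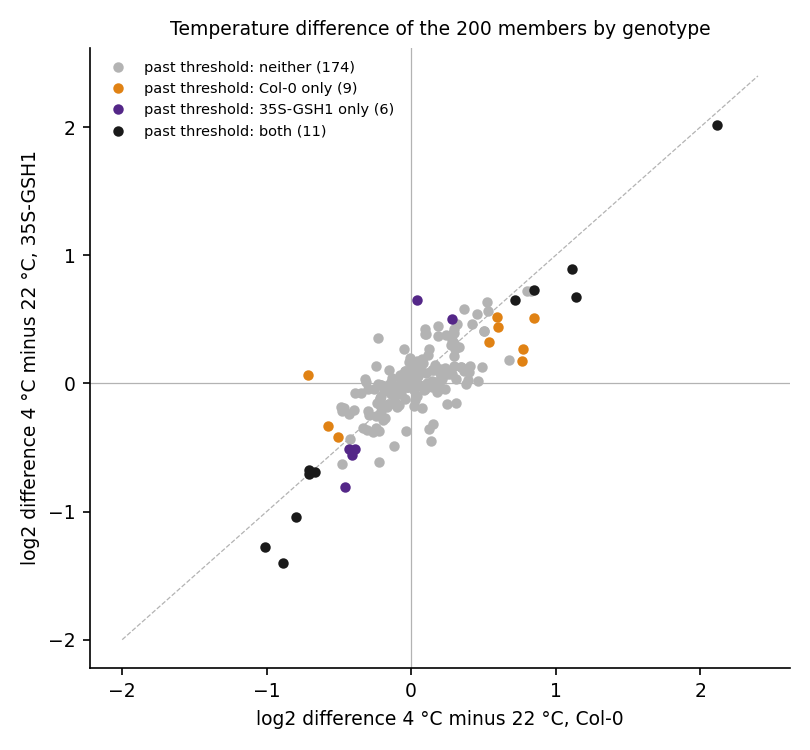
log2 difference between 4 °C and 22 °C in 35S-GSH1 against that in Col-0 for the 200 members, coloured by where they passed, with the line of equal values dashed. The 11 members past the threshold in both genotypes have the same sign on both axes, and STZ is at the upper right.

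The genotype comparison asked which members differed between 35S-GSH1 and Col-0. At 22 °C 0 of the 200 passed in limma, with 12 at an unadjusted p under 0.05, and 0% of all tested passed. At 4 °C 0 passed, with 10 under 0.05, and again 0% of all tested. Averaged over both temperatures 0 passed, with 9 under 0.05, against 0.022% of all tested. The median 95% interval of an averaged difference reached 0.22 log2 units to either side before any adjustment for the number of tests. Of the listed LEA members 11 of 12 lay above 0 in this comparison, with a median of 0.09, against 118 of all 200 members. Above 0 were also 6955 of all 13648 probe sets tested. The members were read on the same arrays, so the count is given as a description. Of the 12, 0 passed.

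The smallest genotype p among members belonged to 254270_at, which had no paired gene and was singled out after its values were seen. Which transcript it reports was not settled here. Its normalized intensities were 1909 and 771 in Col-0 and 2959 and 3251 in 35S-GSH1 at 22 °C, and 1660 and 1048 in Col-0 and 2331 and 2516 in 35S-GSH1 at 4 °C. All 35S-GSH1 arrays lay above all Col-0 arrays, while the Col-0 replicates at 22 °C differed more than 2-fold. The averaged log2 difference was 1.11 (limma adjusted p = 0.249). Without the first Col-0 array at 22 °C it was 1.44 (adjusted p = 0.00919), and without the second it was 0.79 (adjusted p = 0.307). At 22 °C alone the difference of 1.35 (adjusted p = 0.759) became 2.01 (adjusted p = 0.028) and 0.70 (adjusted p = 0.597) in those fits. Each such fit leaves 1 Col-0 array at 22 °C, which is assumed to vary like the other groups.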

How the data were processed

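Labelled cRNA from total seed RNA was hybridised to 8 single-colour Affymetrix arrays. The deposited values are probe-set intensities on a linear scale, made by the authors with GCOS per the submitters' processing notes. How GCOS summarised and scaled the probes is not given in the sources used here. No detection calls were used. Trimmed means lay up to 9.71% from the median array, so the arrays were quantile normalized and analysed as log2(intensity + 1). Ranks and shares used the deposited intensities. Probe sets below the 40th percentile of mean log2 were left out and 13648 were tested with limma 3.58.1 in R 4.3.3 (1 coefficient per group, empirical Bayes with intensity trend, two-sided, Benjamini-Hochberg, threshold 0.05). Precision is limited by the number of arrays. The fit was tested on simulated data. Names came from the platform annotation and RefSeq TAIR10.1. RefSeq gene positions were used only for chromosomes and for neighbours among protein-coding genes. Members and function lists were chosen with earlier results of these data known. Named were the 20 brightest members with 1 gene, the up to 10 largest called differences in each direction with separated arrays, up to 4 per list, the members around rank 200, and unpaired probe sets among the 10 brightest or with the largest called difference. Gene, promoter and protein sequences were not analysed here.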

Additional observations from a re-analysis of the deposited data

How the results depend on the processing

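Averaged over genotypes the 43 temperature calls were 31 to 49 under the 4 other scalings. They were 20 without a filter on dim probe sets, 14 without the intensity trend, 27 at a threshold of 0.01, 19 among members in the first 200 of each group, and 32 to 46 when each array was left out. The Col-0 count of 20 was 12 on the deposited scale, 5 without a filter, 1 without the trend, 9 at 0.01, 8 among members in the first 200 of each group, and 10 to 22 with an array left out. The 35S-GSH1 count of 17 was 6 without a filter, 2 without the trend, 6 at 0.01, 7 among members in the first 200 of each group, and 5 to 18 with an array left out. Leaving out both first replicates at 4 °C, chosen after seeing the data because they had the highest summed intensity, gave 21, 7 and 8. With the replicate block the counts were 73, 48 and 38, and 1 for the averaged genotype difference (254270_at, limma adjusted p = 0.0182). The replicate numbers were not taken to pair the samples, since no label ties them and same-numbered deviations correlated by 0.0506 to 0.143 over all tested, though by 0.266 to 0.42 over the 200 members. The first 50 ranks had 4 calls under the block and 1 under the 60th percentile filter. Genotype counts with an array left out were 0 to 1 at 22 °C and averaged, and 0 to 0 at 4 °C and for the interaction. The median log2 difference of the members, 0.0236, was 0.101 on the deposited scale, -0.00918 after median centring, 0.0111 with quantile normalization without organelle probe sets, and 0.00744 to 0.0284 with an array left out. The share difference was 0.184 to 1.36 percentage points with an array left out. The cause of these shifts was not tested. Of 525 alternative values for 35 single-gene results, 387 kept their side of the threshold, 138 no longer passed and 0 changed sign. These values leave out the fits without a filter on dim probe sets, where the counts above fell. They also leave out the 60th percentile filter, 16 added before the log, and arrays centred on the median of the members. Promoter motifs were not run.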
